A study of Homo sapiens with 23 samples.

Results

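The mitosis genes described here are 59 genes whose products run cell division, chosen by name: cyclins and their kinases, the spindle checkpoint, kinetochores, the spindle, cytokinesis and mitotic chromosome structure. Their symbols were matched through GENCODE release 44 to the Ensembl identifiers of a table of nascent transcription. All 59 matched, out of 60605 identifiers in the table, and all 59 were among the 26057 genes with enough reads to be tested. The members fall into 6 groups by role: 10 cyclin-kinase genes, 8 genes of the checkpoint and of anaphase, 9 of the kinetochore and centromere, 13 of the spindle, 11 of cytokinesis and the chromosomal passenger complex, and 8 of condensin and mitotic chromosomes.

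The assay was PRO-seq (precision run-on sequencing), in which polymerases that are engaged on DNA extend their RNA by a labelled nucleotide, so that a gene's count follows its ongoing transcription rather than its store of mRNA. All libraries came from T47D_dTAG_TRPS1_Clone_28, a single clone of the luminal breast cancer line T47D that carries a degron tag in the endogenous gene of TRPS1, a repressor of the GATA family. Control cells (DMSO, n = 4) received 0.1% v/v DMSO for 24 h, and treated cells received 50 nM dTAG-13 together with 50 nM dTAG-V-1 (dTAG), which cause the tagged protein to be degraded, for 0.5, 1, 2 or 4 h (n = 4 each) or 24 h (n = 3, replicates 2 to 4). Every group, DMSO included, carries the tag, untagged cells given dTAG were not analysed here, and replicates were dishes of the one clone handled at separate times of a day, so p-values measure the spread between these dishes. The times let transcription in the first hours of TRPS1 loss be set beside that after a day, each against the same DMSO libraries.

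Library totals ran from 4408544 to 17571616 counts with a median of 9768427. All 8 luminal markers checked were transcribed, at 52.1 to 2700 counts-per-million units (CPM) of the raw library total, while 9 defining markers of leukocytes, endothelium, fibroblasts, smooth muscle and liver lay between 0 and 15.2 on that scale. All other CPM use the scaled library sizes of edgeR. TRPS1 itself gave 7997 to 11980 CPM over all libraries, which does not bear on the depletion, since that happens to the protein. Libraries of the same replicate number share a harvest time and resembled each other, so each test is given as designed, without a replicate term, and with the replicate number as a block. A gene is called changed at an adjusted p under 0.1.

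Dividing cells rebuild the mitotic machinery in every cycle, and its genes reach their highest mRNA levels in G2 and mitosis. In quiescent and G1 cells the DREAM complex keeps them low, and later B-MYB with the MuvB core and FOXM1 drive them, through promoter elements known as the cell cycle genes homology region (CHR) and the CCAAT box, the latter bound by NF-Y. CDK1 with cyclins A and B starts mitosis, the spindle checkpoint delays CDC20 and the anaphase-promoting complex until kinetochores are attached, condensin compacts the chromosomes, and anillin, the centralspindlin proteins and kinesins split the cell.

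Promoters carrying these elements are shown for 5 members because they set the 24 h results below beside their sequence. CDK1 (the mitotic kinase), KIF4A (a chromosome-bound kinesin) and TOP2A (the topoisomerase that untangles chromosomes) hold both elements and fell at 24 h, BUB1 (a checkpoint kinase) holds no CHR in the bases shown and fell, and CDC20 (the activator of the anaphase-promoting complex) holds both and was not called. Each run gives the bases before the RefSeq start on GRCh38.p14, 5′ to 3′ on the gene's own strand, with CHR (TTTGAA or TTCGAA) and CCAAT matches on either strand in capitals. The windows are chr10:60778081-60778330 on the plus strand for CDK1, chrX:70289854-70290103 on the plus strand for KIF4A, chr17:40417897-40418146 on the minus strand for TOP2A, chr2:110678064-110678313 on the minus strand for BUB1 and chr1:43358731-43358980 on the plus strand for CDC20.
CDK1: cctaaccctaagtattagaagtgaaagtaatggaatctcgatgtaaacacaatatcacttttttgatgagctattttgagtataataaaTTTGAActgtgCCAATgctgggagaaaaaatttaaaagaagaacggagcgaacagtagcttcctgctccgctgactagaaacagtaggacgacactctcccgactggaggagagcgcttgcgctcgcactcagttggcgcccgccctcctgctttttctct
KIF4A: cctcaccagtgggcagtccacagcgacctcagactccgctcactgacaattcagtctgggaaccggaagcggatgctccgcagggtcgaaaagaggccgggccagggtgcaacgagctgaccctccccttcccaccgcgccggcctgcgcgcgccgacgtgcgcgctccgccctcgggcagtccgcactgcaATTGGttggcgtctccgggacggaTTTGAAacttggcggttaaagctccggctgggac
TOP2A: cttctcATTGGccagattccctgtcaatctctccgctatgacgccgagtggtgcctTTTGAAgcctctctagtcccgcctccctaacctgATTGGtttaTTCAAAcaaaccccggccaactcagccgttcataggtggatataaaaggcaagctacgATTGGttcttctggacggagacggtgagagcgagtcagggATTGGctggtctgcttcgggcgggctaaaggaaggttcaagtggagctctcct
BUB1: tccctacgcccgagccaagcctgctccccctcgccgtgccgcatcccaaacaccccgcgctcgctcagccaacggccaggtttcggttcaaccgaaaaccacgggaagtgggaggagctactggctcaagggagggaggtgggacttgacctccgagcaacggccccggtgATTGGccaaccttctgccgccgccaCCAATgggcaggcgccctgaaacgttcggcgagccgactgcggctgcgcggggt
CDC20: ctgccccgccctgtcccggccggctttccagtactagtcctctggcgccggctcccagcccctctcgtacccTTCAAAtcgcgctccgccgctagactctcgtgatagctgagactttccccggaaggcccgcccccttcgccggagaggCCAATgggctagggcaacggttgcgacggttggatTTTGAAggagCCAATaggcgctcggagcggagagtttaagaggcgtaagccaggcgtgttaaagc

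Counting back from the start, where the last base shown is -1, CDK1 holds a CHR at -161 to -156 and a CCAAT box at -150 to -146, and KIF4A holds a CCAAT box at -58 to -54 and a CHR at -34 to -29. TOP2A holds 4 CCAAT boxes and 2 CHR matches, CDC20 holds 2 of each, and BUB1 holds 2 CCAAT boxes.

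Over the 250 bases before the start, 26 of the 50 members with a RefSeq window held a CHR, 52.0% (95% Wilson interval 38.5% to 65.2%), against 11.9% of 15843 protein-coding promoters of the same length. The CCAAT box (CCAAT) stood in 36 members, 72.0% (58.3% to 82.5%), against 34.5% of all promoters, and both elements stood together in 22 members, 44.0%, against 4.63%. An E2F site, searched as TTTCCCGC, TTTCGCGC, TTTGCCGC or TTTGGCGC, stood in 2 members (4.0%) against 3.72% of promoters, but in 13 of 39 promoters of a list of DNA replication genes (33.3%), only 2 of which (5.13%) held a CHR. The letters GATAA were found in 6 members (12.0%, against 16.5%), and AGGTCA, an arm of the estrogen receptor's site, in 4 (8.0%, against 10.3%). GATA factors bind (A/T)GATA(A/G), so GATAA covers only part of their sites, and GATAG was not searched. All motifs were searched on both strands, and a match is a description of letters, not a bound site. The RefSeq start lay within 100 bases of the outer end of the GENCODE gene for 32 of the 50, and of these 17 (53.1%) held a CHR. The 9 members without a window were CDCA2, TPX2, RACGAP1, AURKA, PBK, FOXM1, BIRC5, TTK and UBE2C.

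**Figure D1:**
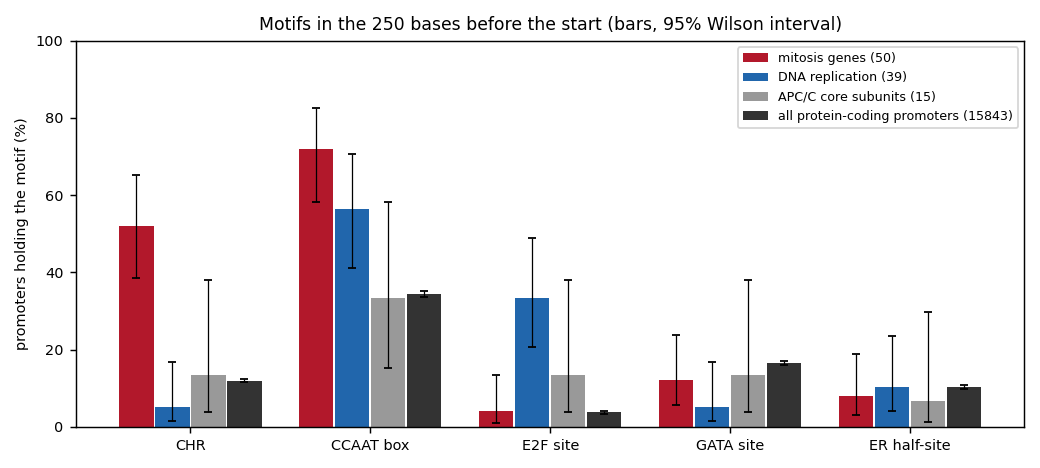
Share of promoters (%, y axis) that hold each motif in the 250 bases before the start, for the mitosis genes (50 promoters), DNA replication genes (39), core subunits of the anaphase-promoting complex with its activator FZR1 (15) and all protein-coding promoters (15843), with 95% Wilson intervals. The CHR bar of the mitosis genes stands at 52.0% and that of all promoters at 11.9%.

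The members lie on 21 chromosomes and span 4.22 to 131 kb, with a median of 33.9 kb. Their mean counts per library ran from 79.7 for CDCA3 to 3044 for ECT2 with a median of 553.7, so precision differs widely among them. Transcription per length in DMSO, in CPM per kb of gene span, had a median of 1.74. It was highest at UBE2C, the ubiquitin-conjugating enzyme of the anaphase-promoting complex, with 9.96, followed by SMC4 (7.77), a condensin ATPase, CDK1 (7.39) and TOP2A (6.55), and lowest at KIF4A (0.504), the longest member. Within groups, the SD of log2 CPM averaged from 0.0363 for ANLN to 0.47 for CENPF, with a median of 0.0902 over the members.

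A pair of members had single libraries far from all others, and these bear on sums and means below. CENPF, a large kinetochore protein, gave 454, 260.1, 247 and 225 CPM in DMSO replicates 1 to 4, 914 CPM in replicate 4 at 1 h and 928 CPM in replicate 1 at 4 h, against 195 to 297 CPM in the other 17 libraries. CKAP5, a microtubule polymerase, gave 943 CPM in DMSO replicate 2 and 229 to 365 CPM in all other libraries. Neither gene was called at any time, and their fold changes, such as -0.89 ± 0.31 (SE) on the log2 scale for CKAP5 at 24 h, rest on those libraries. In all, 11 members overlap another gene on the same strand, so part of their reads cannot be assigned, among them NUSAP1, BUB1B, PRC1, CCNB2, CENPA and SMC4, and 30 overlap one on the opposite strand. In 6 pseudogenes nested on the opposite strand of members the summed mean count was 4.0, where 225 would be expected from the members' density if strand were ignored, so opposite-strand partners added little.

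In the first hours no member was called without the block, and members stood on both sides of 0. At 0.5 h, 0 of 59 members passed edgeR's quasi-likelihood test, against 0.476% of all genes, 31 had a negative log2 fold change and 28 a positive one, and the median was -0.003 against 0.01 for all genes. The counts for 1, 2 and 4 h were 0, 0 and 0, against 1.25%, 0.733% and 0.833% of all genes, with medians of -0.02, 0.01 and 0.05. At an unadjusted edgeR p under 0.05, in the same order of times, 5, 2, 3 and 6 members passed. Of all 26057 genes 2002, 2454, 1849 and 1946 did. DESeq2 also called 0 members at each of these times. With the block 1, 2, 1 and 1 members were called at 0.5, 1, 2 and 4 h, against 2.48%, 3.25%, 2.43% and 2.49% of all genes, so that the members were near or under the background. Leaving out replicate 2 at 1 h gave 1 call at that time, and leaving out replicate 1, or its DMSO library alone, gave 1 at 2 h.

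Those 5 block-only calls were KIF14, ESPL1, TPX2, PTTG1 and HMMR. KIF14, a kinesin of the midbody, gave 91.2, 80.1, 91.8 and 94.6 CPM in DMSO and 76.3, 75.9, 81.3 and 87.0 CPM at 0.5 h. Each of its 0.5 h libraries lay below the DMSO library of the same number, with a log2 fold change of -0.16 ± 0.04 (SE; edgeR adjusted p = 0.0561 with the block and 0.608 without). ESPL1 (separase), the protease that opens cohesin at anaphase, gave 45.7, 50.1, 43.2 and 44.1 CPM in DMSO and 37.4, 43.2, 39.8 and 35.8 CPM at 1 h. Its 1 h libraries were lower in all 4 pairs, by a log2 fold change of -0.21 ± 0.06 (SE; edgeR adjusted p = 0.0561 with the block, 0.165 without), and by 4 h it was at 45.1 ± 2.79 CPM (SD, n = 4), beside 45.8 ± 3.05 in DMSO. TPX2, which activates aurora A on the spindle, gave 164, 169, 167 and 159 CPM at 1 h, below the DMSO library of its number in all 4 pairs (197, 183, 176 and 167 CPM), with -0.13 ± 0.04 (SE; edgeR adjusted p = 0.0614 with the block, 0.259 without). PTTG1 (securin, the inhibitor of separase) gave 37.7, 41.1, 41.5 and 38.9 CPM at 2 h, above DMSO in 3 of 4 pairs, and rose with the block by 0.16 ± 0.05 (edgeR adjusted p = 0.0985 with the block, 0.278 without), and HMMR, a spindle and hyaluronan-binding protein, rose at 4 h by 0.15 ± 0.04 (edgeR adjusted p = 0.0704 with the block, 0.415 without).

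FOXM1, CCNB1, CDK1, PLK1, AURKA, MKI67 and TOP2A overlapped DMSO over the first hours. Over the 12 libraries from 0.5 to 2 h, FOXM1 gave 24.8 to 33.6 CPM, CCNB1 49.7 to 62.9 CPM, CDK1 111 to 129 CPM and PLK1 48.3 to 59.3 CPM. AURKA ran from 78.3 to 91.3 CPM in them, MKI67 from 86.7 to 114 CPM and TOP2A from 168 to 203.5 CPM. Each of these ranges overlapped that of the 4 DMSO libraries, and the lowest FOXM1 value was 1 h replicate 3. After 4 h FOXM1 stood at 29.8, 34.9, 32.5 and 32.9 CPM, and PLK1 at 59.2, 57.3, 52.3 and 53.9 CPM. MKI67 stood then at 141, 92.7, 93.8 and 102 CPM, where replicate 1 was its highest library of all 23.

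At 4 h most members lay above 0, none of them past the test without the block. In all, 48 of 59 had a positive log2 fold change, where 54.7% of all genes did, and 13 members were above DMSO in every same-numbered pair (9.56% of all genes). By role, the median log2 fold change at 4 h was 0.08 for cytokinesis, 0.07 for the cyclin-kinase genes, 0.07 for condensin and mitotic chromosomes, 0.05 for the spindle, 0.04 for the kinetochore and 0.02 for the checkpoint group. At 0.5 h, members with longer spans had lower fold changes (Spearman's rho = -0.489 over 59 members, which share their libraries), while rho was -0.0692 over 12161 protein-coding genes of the same range of spans. From 1 to 24 h it lay between -0.209 and -0.0707 over the members.

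**Figure D2:**
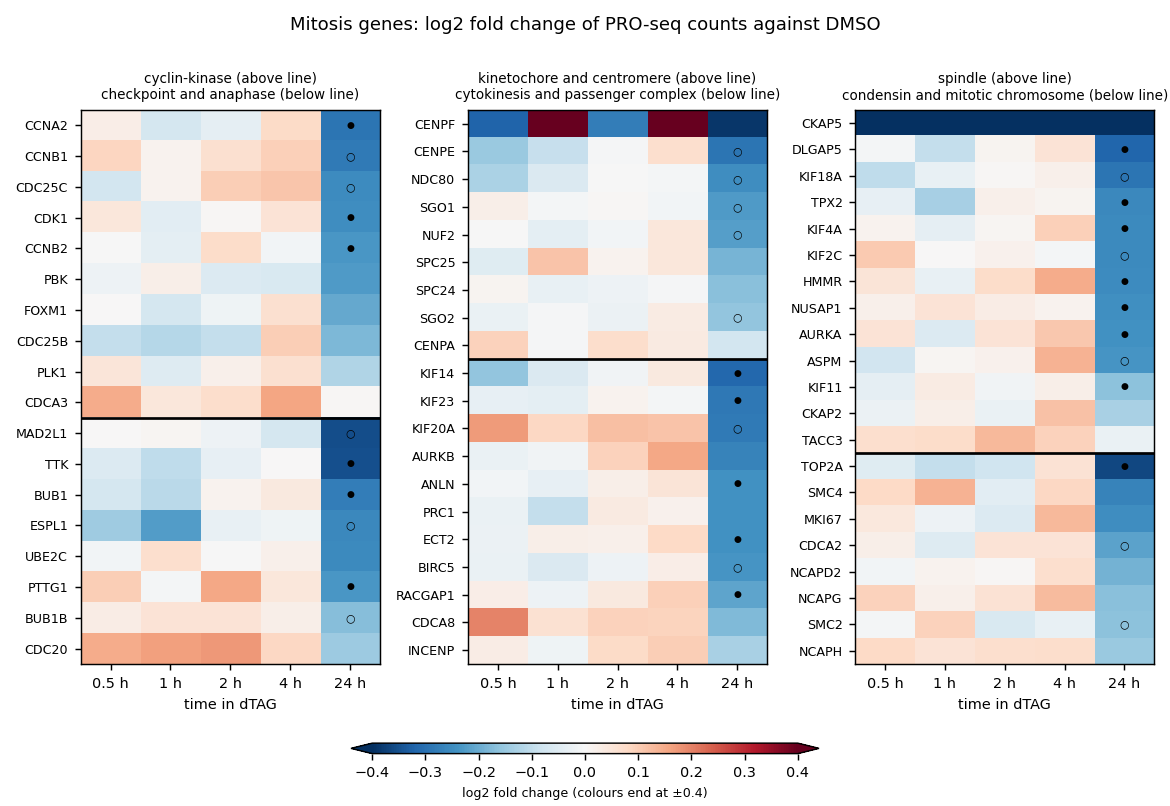
Log2 fold change of PRO-seq counts against DMSO for each of the 59 mitosis genes (rows, by role) at each time in dTAG (columns); a filled circle at 24 h marks an edgeR adjusted p under 0.1 and an open circle a call only with the replicate block. Columns from 0.5 to 4 h are pale and mixed, the 24 h column is blue for 58 of 59 genes, and the dark cells of CENPF and CKAP5 rest on single libraries.

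At 24 h transcription of the mitosis genes was lower in nearly every member. Of 59 members, 58 had a negative log2 fold change (49.1% of all genes did), and the median was -0.24, against 0.003 for all genes. Without the block 19 members fell and 0 rose, against 0.299% of all genes called lower and 0.564% called higher. With the block 36 fell and 0 rose, against 1.22% and 1.43%. In 36 members the 3 libraries at 24 h lay below all 4 DMSO libraries (4.27% of all genes), and in 50 each 24 h library lay below the DMSO library of its own number (16.3% of all genes). For 51 members the lowest of all 23 libraries was one at 24 h, a count that was not made over all genes. In bulk libraries fewer cells in the late phases of the cycle and less transcription per cell cannot be told apart.

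How many members pass depends on the replicates, although the size of the shift does not. For fits other than those without and with the block on all libraries, the share of all genes called is not given. The counts from such fits, here and in later paragraphs, therefore do not show whether calls over all genes moved alike. Without replicate 2 the count of called members was 3, without replicate 3 it was 0 and without replicate 4 it was 3, and with the block these became 24, 13 and 25. Leaving out 1 library of DMSO replicate 1 or of 24 h replicates 2, 3 or 4 gave 10, 10, 6 and 11, and total-count scaling, no low-count filter and a fit of DMSO and 24 h alone gave 1, 5 and 2, while the median log2 fold change stayed between -0.26 and -0.21 in all these settings. Of the genes named below, ANLN, BUB1 and TOP2A were called in 18 of 21 other settings, TPX2 in 16, KIF4A in 15, AURKA in 14, CDK1 in 13, CCNA2 and KIF14 in 9 and HMMR, PTTG1 and RACGAP1 in 8.

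Summed over the members, the counts of the DMSO libraries were 5374, 5532, 5023 and 4922 CPM and those of the 24 h libraries 4127, 4250 and 4452 CPM. Without CENPF and CKAP5, the sums were 4647, 4329, 4521 and 4432 CPM in DMSO, 4622 to 4779 CPM after 4 h and 3702, 3805 and 3939 CPM after 24 h. All 3 libraries at 24 h were below all 20 others on both sums, and the 24 h and DMSO ranges did not overlap.

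**Figure D3:**
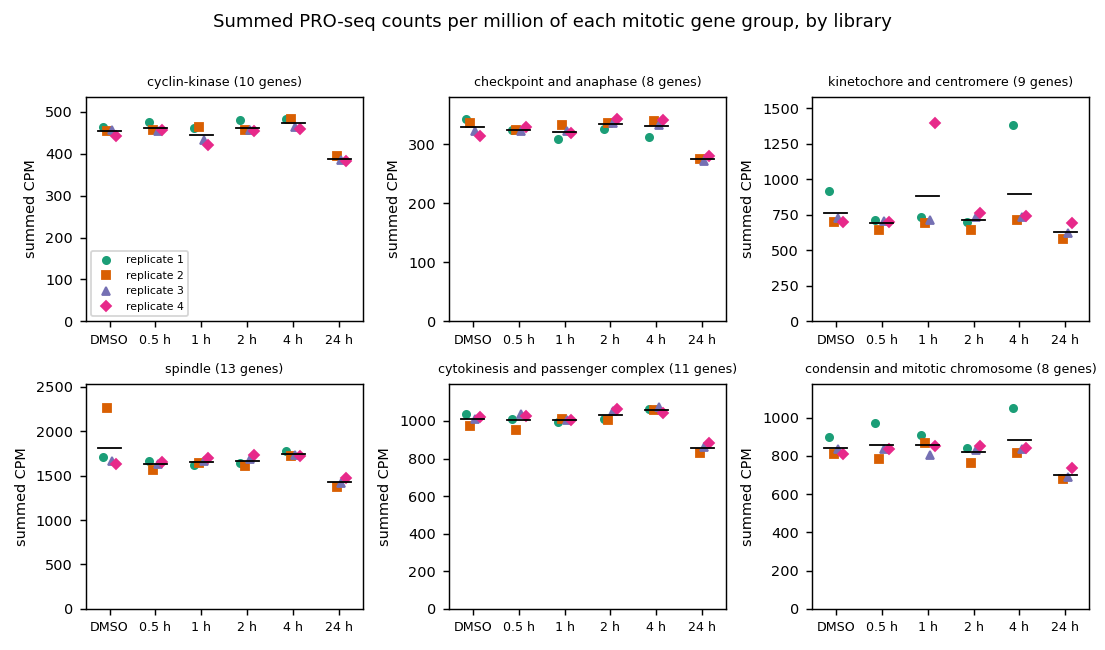
Summed CPM (y axis, from 0) of the members of each group by role in every library, by time in dTAG (x axis), with a symbol for each replicate number and a line at the mean. In the cyclin-kinase, checkpoint, spindle, cytokinesis and condensin panels the 24 h libraries lie below every other library, and in the kinetochore panel they overlap others. The high points in the kinetochore and spindle panels come from CENPF and CKAP5.

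Of the 10 cyclin-kinase genes, 3 fell (CCNA2, CDK1 and CCNB2) and with the block also CCNB1 and CDC25C, with a median log2 fold change of -0.23. CDK1 gave 119, 115, 135 and 119 CPM in DMSO, 127, 124, 130 and 127 CPM after 4 h and 104, 103 and 101 CPM after 24 h. Its 24 h libraries lay close together and below every DMSO library, a log2 fold change of -0.25 ± 0.05 (SE; edgeR adjusted p = 0.0282, and 0.00701 with the block). Its promoter is the first of those shown above. CCNA2 (cyclin A2) gave 29.5, 28.5, 29.7 and 30.9 CPM in DMSO and 23.7, 23.7 and 25.3 CPM at 24 h. The groups did not overlap, with a log2 fold change of -0.29 ± 0.07 (SE; edgeR adjusted p = 0.0407, and 0.0216 with the block). CCNB1 (cyclin B1), the partner of CDK1, gave 59.8, 56.9, 49.1 and 50.1 CPM in DMSO and 46.9, 42.0 and 43.99 CPM at 24 h. DMSO replicates 1 and 2 were above replicates 3 and 4, as at 4 h (67.5, 57.9, 52.0 and 54.3 CPM), and the gene was called only with the block (-0.23 ± 0.05, edgeR adjusted p = 0.00821, against 0.287 without).

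Regulators upstream of entry were less clear. PLK1, the polo kinase, gave 60.4, 52.8, 47.7 and 52.1 CPM in DMSO and 48.6, 49.3 and 48.7 CPM at 24 h, so the groups overlapped, and its log2 fold change of -0.12 ± 0.07 was not called (edgeR adjusted p = 0.818, and 0.697 with the block). FOXM1, the transcription factor of many members, gave 32.0, 32.2, 28.6 and 32.4 CPM in DMSO and 28.0, 26.2 and 27.2 CPM at 24 h. All 3 of its 24 h libraries were below all DMSO libraries, yet its -0.21 ± 0.08 was not called either way (edgeR adjusted p = 0.43, and 0.158 with the block). CDCA3, a trigger of WEE1 degradation and the member with the fewest counts, gave 7.83, 7.41, 7.44 and 6.35 CPM in DMSO and 7.27, 6.80 and 7.77 CPM at 24 h. It was the only member with a positive log2 fold change, 0.01 ± 0.11, and that sign turned with median-of-ratios size factors, with DESeq2 and when replicate 4 was left out. CDC25B and PBK were called in neither fit.

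In the checkpoint and anaphase group 3 of 8 fell (BUB1, PTTG1 and TTK), 6 with the block (BUB1B, MAD2L1 and ESPL1 added), with a median of -0.26. BUB1 gave 55.2, 54.3, 52.1 and 52.5 CPM in DMSO, 56.3, 53.7, 55.2 and 55.1 CPM after 4 h and 43.96, 41.7 and 47.1 CPM after 24 h. These last libraries stood clear of all 20 others, with a log2 fold change of -0.28 ± 0.05 (SE; edgeR adjusted p = 0.00315, and 0.00102 with the block). PTTG1 gave 39.4, 35.4, 35.1 and 33.6 CPM in DMSO and 30.1, 30.8 and 30.6 CPM at 24 h. It fell by 0.23 on the log2 scale (SE 0.05; edgeR adjusted p = 0.042), while at 2 h it had been called higher only with the block. MAD2L1 and TTK, a checkpoint effector and a checkpoint kinase, had fold changes of -0.35 and -0.35, the lowest of the group, and TTK passed at an edgeR adjusted p of 0.0946 while MAD2L1 passed only with the block (0.0157, against 0.123). CDC20 gave 15.0, 13.0, 11.5 and 10.9 CPM in DMSO and 11.9, 10.6 and 11.5 CPM at 24 h. Its groups overlapped and its -0.15 ± 0.13 was not called (edgeR adjusted p = 0.9), with a mean count of 135 per library. UBE2C was called in neither fit.

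None of the 9 kinetochore and centromere genes was called without the block, and all had a negative fold change (median -0.22). In that edgeR fit 6 had an unadjusted p under 0.05, as did 1922 of all 26057 genes. With the block CENPE, NDC80, NUF2, SGO1 and SGO2 were called lower. CENPE, the kinesin that carries chromosomes to the metaphase plate, gave 79.6, 76.3, 84.3 and 78.7 CPM in DMSO and 52.8, 69.4 and 72.8 CPM at 24 h. Its 24 h libraries were all lower but spread widely (-0.30 ± 0.06 with the block, edgeR adjusted p = 0.00373, against 0.34 without). NUF2, of the NDC80 complex that grips microtubules, gave 70.7, 62.4, 70.7 and 68.1 CPM in DMSO and 59.2, 60.0 and 56.2 CPM at 24 h, with -0.23 ± 0.05 (edgeR adjusted p = 0.0139 with the block, 0.171 without). CENPA, the histone H3 variant of centromeres, gave 69.0, 67.4, 66.4 and 69.5 CPM in DMSO and 67.8, 64.3 and 62.3 CPM at 24 h. It overlapped between groups and was not called (-0.07 ± 0.05, edgeR adjusted p = 0.865), and it overlaps SLC35F6 on its own strand. SPC24 and SPC25, also of the NDC80 complex, and CENPF were called in neither fit.

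The spindle group had the most calls: 7 of 13 fell (KIF4A, TPX2, AURKA, DLGAP5, NUSAP1, HMMR and KIF11) and 10 with the block (KIF2C, KIF18A and ASPM added), with a median of -0.25. KIF4A gave 67.8, 62.4, 68.4 and 64.8 CPM in DMSO and 53.8, 55.3 and 56.6 CPM at 24 h. Its groups were well apart, with -0.25 ± 0.05 (SE; edgeR adjusted p = 0.00722, and 0.00101 with the block). TPX2 gave 197, 183, 176 and 167 CPM in DMSO and 155, 151 and 148 CPM at 24 h, again without overlap (-0.26 ± 0.05, edgeR adjusted p = 0.00998). AURKA, the centrosomal aurora kinase that TPX2 activates, gave 88.1, 83.7, 82.2 and 79.9 CPM in DMSO, 93.0, 88.6, 90.9 and 87.7 CPM after 4 h and 69.1, 67.8 and 74.9 CPM after 24 h. The 24 h libraries were the lowest of all 23 (-0.24 ± 0.05, edgeR adjusted p = 0.0132). HMMR gave 107.5, 96.9, 112 and 107 CPM in DMSO, 119, 115, 120.1 and 116 CPM after 4 h and 85.6, 91.1 and 90.1 CPM after 24 h. It stood above DMSO at 4 h in all 4 pairs and below it at 24 h in all 3 (-0.25 ± 0.06 at 24 h, edgeR adjusted p = 0.0508). TACC3, which clathrin holds on spindle fibres, was the spindle gene with the smallest shift, with 107, 107, 97.0 and 95.7 CPM in DMSO and 109, 92.2 and 98.0 CPM at 24 h. The groups overlapped (-0.03 ± 0.07, edgeR adjusted p = 0.999) and the sign turned in 5 of 21 other settings. CKAP2 and CKAP5 were called in neither fit, and NUSAP1 overlaps a same-strand gene with more reads than itself (mean counts 781 and 1387).

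**Figure D4:**
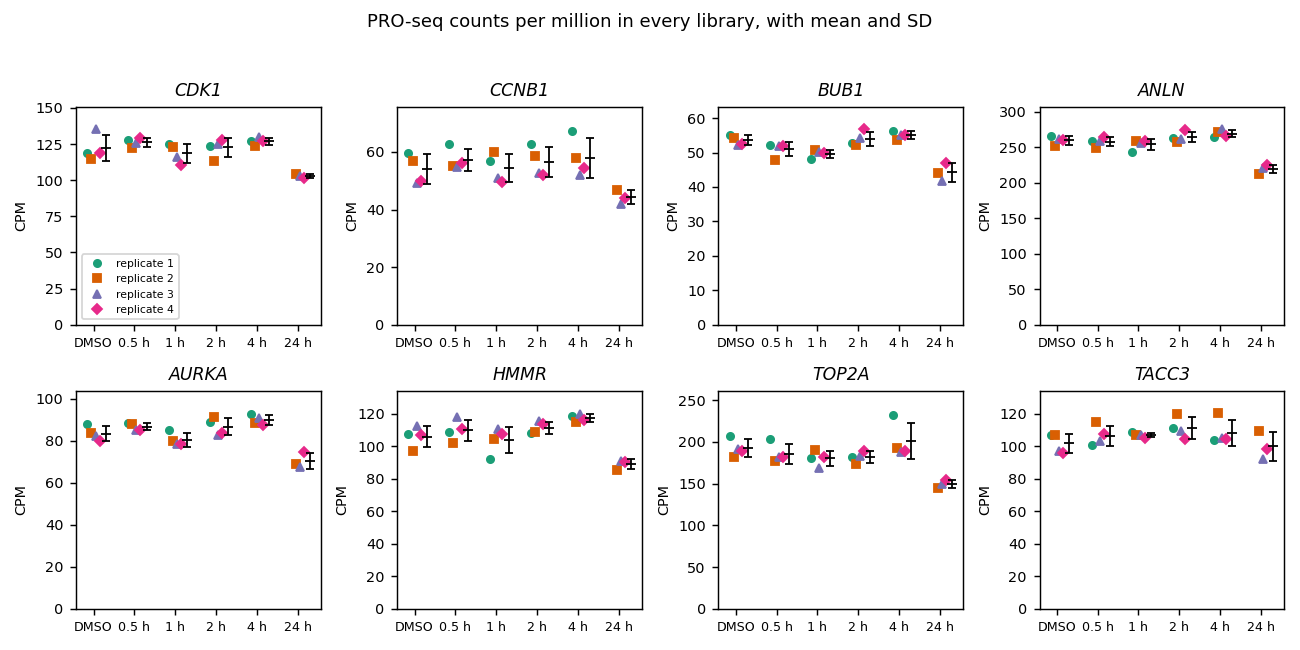
CPM (y axis, from 0) in every library for 8 mitosis genes by time in dTAG (x axis), with a symbol for each replicate number and the mean ± SD beside them. CDK1, BUB1, ANLN, AURKA, HMMR and TOP2A show their lowest libraries at 24 h, CCNB1 differs by replicate number as well, and the groups of TACC3 overlap.

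Of the 11 cytokinesis and passenger complex genes, 5 fell (ANLN, RACGAP1, KIF23, ECT2 and KIF14) and 7 with the block (KIF20A and BIRC5 added), with a median of -0.24. ANLN (anillin), the scaffold of the contractile ring, gave 266, 252, 261 and 260.4 CPM in DMSO, 265, 271, 276 and 266 CPM after 4 h and 213, 221 and 225 CPM after 24 h. It had the smallest spread of all members and the lowest adjusted p at 24 h (-0.24 ± 0.04, edgeR adjusted p = 0.00118, and 8.84e-05 with the block). The centralspindlin pair RACGAP1 and KIF23 fell together with their partner ECT2, the exchange factor that switches on RhoA at the cell middle. RACGAP1 gave 103.5, 92.7, 93.8 and 101 CPM in DMSO and 82.9, 82.9 and 87.6 CPM at 24 h, without overlap (-0.21 ± 0.05, edgeR adjusted p = 0.037). KIF23 had -0.29 ± 0.06 (edgeR adjusted p = 0.0409) and ECT2 -0.24 ± 0.06 (0.0676). Of the passenger complex, which corrects attachments and steers abscission, BIRC5 (survivin) was called only with the block (-0.22 ± 0.06, edgeR adjusted p = 0.071), and AURKB, CDCA8 and INCENP were called in neither fit, nor was PRC1, which bundles the microtubules of the spindle midzone. INCENP gave 51.4, 49.8, 48.3 and 48.4 CPM in DMSO and 45.0, 44.1 and 46.4 CPM at 24 h, lower in every library by a small amount (-0.13 ± 0.05, edgeR adjusted p = 0.378).

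In the condensin and mitotic chromosome group only TOP2A fell, with CDCA2 and SMC2 added by the block, and the median was -0.20. TOP2A gave 207, 182, 192 and 189 CPM in DMSO, 233, 192, 188 and 189 CPM after 4 h and 144, 150 and 155 CPM after 24 h. Its groups were far apart and its log2 fold change of -0.36 ± 0.07 (SE; edgeR adjusted p = 0.00998, and 0.000697 with the block) was the lowest among the members called without the block. The condensin I subunits NCAPG, NCAPH and NCAPD2 had -0.17, -0.15 and -0.19 and SMC4 had -0.27, none of them called in either fit. NCAPH gave 44.1, 53.9, 46.7 and 43.7 CPM in DMSO and 41.3, 41.0 and 45.3 CPM at 24 h, with overlap. CDCA2, which brings a phosphatase to anaphase chromatin, gave 69.5, 62.4, 71.4 and 64.2 CPM in DMSO and 52.7, 55.9 and 64.3 CPM at 24 h (-0.23 ± 0.07 with the block, edgeR adjusted p = 0.0813, against 0.453 without). MKI67 (Ki-67), the coat of mitotic chromosomes and a common marker of proliferation, gave 105, 97.5, 95.4 and 92.5 CPM in DMSO and 84.5, 78.6 and 83.3 CPM at 24 h. Its groups did not overlap, and replicate 1 at 4 h, at 141 CPM, stood above all its other libraries, but it was called in neither fit (-0.25 ± 0.10, edgeR adjusted p = 0.562, and 0.233 with the block).

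Set against 4 h in place of DMSO, the 24 h libraries were lower in all 59 members, with -0.28 as the median log2 fold change. Without the block 23 members were called lower (0.28% of all genes) and with the block 45 (1.05%), with 0 higher in each fit (0.173% and 0.714%). In 46 members the groups did not overlap (3.66% of all genes), in 57 the 24 h library was lower in every same-numbered pair (17.1%), and a negative fold change was shared by 52.8% of all genes. Among those called here and not against DMSO without the block were CDC25C, NUF2, KIF20A, AURKB, INCENP and NCAPG, while TTK and CCNB2 were called against DMSO alone. HMMR had a log2 fold change of -0.40 (edgeR adjusted p = 0.00244), AURKA -0.35 (0.00112), KIF4A -0.35 (0.000996), TOP2A -0.42 (0.00634) and ANLN -0.30 (0.000648). This comparison shares its 24 h libraries with the one against DMSO, so the counts of calls are not independent. Leaving out replicates 2, 3 or 4 gave 6, 0 and 5 calls without the block and 22, 16 and 30 with it, and leaving out the single 24 h libraries of replicates 2, 3 and 4 gave 10, 11 and 13.

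Over the whole course, tested in 1 F-test on all 5 times, 21 members changed without the block (2.71% of all genes) and 45 with it (9.01%). ANLN, AURKA, KIF4A, PTTG1 and BUB1 had the lowest edgeR adjusted p-values, 0.000869, 0.00187, 0.00262, 0.00262 and 0.00283. The count was 3, 0 and 3 without replicates 2, 3 and 4, and 23, 15 and 26 in the same settings with the block.

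Other mitotic genes, listed separately, had medians at 24 h between those of the members and of all genes. Their counts stand beside 0.299% of all genes called lower at 24 h without the block and 1.22% with it. Of 13 other mitotic regulators 1 fell (MELK, a kinase of dividing cells) and 6 with the block, and their median log2 fold change was -0.20. Of 29 other kinetochore genes, 3 fell (CENPI, KNL1 and ZWILCH) and 10 with the block, with a median of -0.16. Of 24 other spindle and cytokinesis genes 2 fell (CEP55, which brings the abscission machinery to the midbody, and CIT, citron kinase) and 12 with the block, with a median of -0.19. CIT gave the lowest adjusted p of these, with 178 ± 4.65 CPM (SD, n = 4) in DMSO and 149 ± 4.99 CPM (n = 3) at 24 h, a log2 fold change of -0.25 ± 0.04 (SE; edgeR adjusted p = 0.00116). Among 13 genes of condensin II and cohesin, complexes also used outside mitosis, 1 fell in both fits (NCAPD3, -0.13 ± 0.03, edgeR adjusted p = 0.092), and the median was -0.09. Without replicate 3 none of these lists had a call, without replicate 4 only the kinetochore and the spindle and cytokinesis lists had one (1 each), without replicate 2 the kinetochore and the condensin II and cohesin lists had 0, and without replicate 1 the regulators and the condensin II and cohesin lists had 0.

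The machinery that destroys mitotic proteins and the regulators of the members were nearer to 0. The list of the anaphase-promoting complex held 15 genes, its core subunits, which are made through the whole cycle, and its activator FZR1. Of these, 0 were called by edgeR with or without the block. At an unadjusted edgeR p under 0.05 without the block 1 passed, where 1922 of all 26057 genes did. A negative fold change was found in 8 of 15 (49.1% of all genes), with a median of -0.01. A list of 16 genes held DREAM and MuvB regulators and the NF-Y genes NFYA, NFYB and NFYC. Of these 1 fell (RBL1, the p107 pocket protein, -0.23 ± 0.05, edgeR adjusted p = 0.0367), against 0.299% of all genes called lower. With the block LIN52 and LIN54 also fell, against 1.22% of all genes, and the median of the list was -0.05. MYBL2 (B-MYB), itself a gene of late G1, had -0.15 ± 0.07 at 24 h (edgeR adjusted p = 0.63), and with the block it rose at 0.5 h (0.19 ± 0.05, edgeR adjusted p = 0.0354, against 0.325 without). With the block 2.48% of all genes were called at 0.5 h. RBL1 was not called without replicates 2, 3 or 4, when the list had 0 calls.

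DNA replication genes, 46 in number, differed in their course. Their median log2 fold changes in order of time were 0.08, 0.07, 0.02, -0.08 and -0.11, where that of the mitosis genes was -0.003, -0.02, 0.01, 0.05 and -0.24. At 4 h, 38 of the 46 were below 0, where 11 of the 59 mitosis genes were. At 24 h, 1 fell (POLE2, of the leading-strand polymerase, -0.23 ± 0.05, edgeR adjusted p = 0.0481), and 8 with the block, against 0.299% and 1.22% of all genes called lower. Without replicates 2, 3 or 4 the replication list had 0 calls. Set against 4 h, their median at 24 h was -0.02 and that of the mitosis genes -0.28. The difference between the lists was not tested, and all these comparisons share the DMSO or the 24 h libraries.

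**Figure D5:**
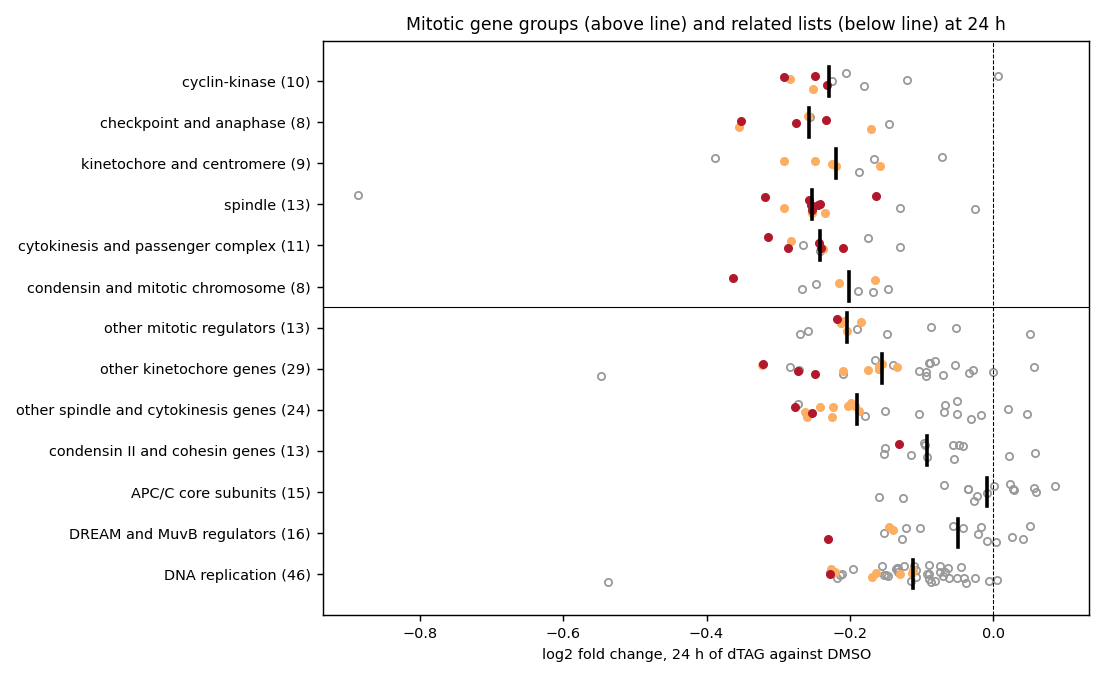
Log2 fold change at 24 h against DMSO (x axis) of each gene in the 6 mitotic groups (above the line) and in related lists (below it), with the number of genes in brackets and a bar at the median. Red points are called without and with the replicate block, orange points only with it, and open points in neither. Medians run from -0.26 to -0.20 in the mitotic groups and reach -0.01 for the anaphase-promoting complex with FZR1.

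Returning to the promoters, members are set side by side by whether they held an element. Those with a CHR in the 250 bases before the start had a median log2 fold change of -0.24 (26 members, 10 called without the block and 14 with it), and those without one -0.25 (24 members, 5 and 16). Members with a CCAAT box had -0.25 (36 members, 14 and 21 called) and those without -0.20 (14 members, 1 and 9). In the whole window of 300 bases, which takes in the first transcribed bases, 36 members held a CHR, with a median of -0.24 (13 called without the block and 22 with it), and 14 did not, with -0.24 (2 and 8). Among the 32 members whose RefSeq start lay near the outer end of the gene, the medians in the 250 bases were -0.24 with a CHR (17 members, 7 and 11 called) and -0.25 without (15 members, 4 and 11), and for the CCAAT box -0.25 with (25 members, 10 and 16 called) and -0.24 without (7 members, 1 and 6). The start of NUF2 lay farthest inside its gene, by 55378 bases. These are counts over members, with no test, and depth also differs between members.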

How the data were processed

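PRO-seq was run on 23 libraries of T47D_dTAG_TRPS1_Clone_28, and the deposited file, made by the authors, holds raw counts of reads per gene in each library, with no normalization. According to the study's methods the authors trimmed adapters, removed ribosomal DNA reads, collapsed duplicates by molecular identifier, aligned to hg38 and counted reads over genes with bedtools. The submitters' processing notes name cutadapt 1.8.1, Bowtie2 2.4.4 and SAMtools 1.9. Whether strand was used in counting, and the annotation release, are not given in the sources used here, so strand was checked on nested pseudogenes.

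Of 60605 identifiers, 60463 matched GENCODE 44 symbols. Genes were kept by filterByExpr (minimum count 10, minimum total 15), which left 26057 genes with 99.5% to 99.6% of the counts. edgeR 4.0.16 (R 4.3.3) with TMM scaling and the quasi-likelihood test was fitted on all libraries by group, with Benjamini-Hochberg adjustment over all genes kept and a threshold of 0.1. CPM use edgeR's effective library sizes, except for the cell type markers, which are per raw library total. Errors after a log2 fold change are SE and after a mean SD. Totals of 4408544 to 17571616 counts limit the precision of low genes. Replicates of a group differed by more than counting noise (chi-square per degree of freedom 1.55 to 38.8), so each was counted as a sample. Simulated data for 24 h against DMSO (25687 genes) gave back 20.4% of 98 genes changed by 0.3 on the log2 scale and 84.3% of 102 changed by 0.6.

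The treatment protocol puts same-numbered replicates in a shared harvest, which pairs them. Their deviations from group means, on log2 of CPM with a pseudocount of 0.5, correlated by 0.313 on average over 55 same-numbered pairs of libraries and by -0.0891 over 165 others (0.611, 0.111, 0.462 and 0.168 for numbers 1 to 4). With the number as a block the common dispersion was 0.00489 in place of 0.0249. Other settings were DESeq2 1.42.0, other scalings, no filter, fewer groups and left-out replicates or libraries. Promoters were RefSeq windows on GRCh38.p14. The members, lists and tests were chosen with earlier results of these data known. Values in each DMSO and 24 h library, with ranges or values at earlier times, are given for FOXM1, CCNB1, CDK1, PLK1, AURKA, MKI67 and TOP2A, and values in each DMSO and 24 h library for the 2 members of each role group with the smallest p and the member with the highest log2 fold change at 24 h, and values at the time of the call for members called at 0.5 to 4 h in either fit. In the other lists MYBL2 and up to 4 called genes with the smallest p are named. CENPF and CKAP5 were named after their values were seen.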

Additional observations from a re-analysis of the deposited data

Results flagged for a closer look

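Of 165 groups of 4 libraries checked over the named members and the sums, 17 (10.3%) held 1 library far from the other 3, where chance flags about 1 in 20, and the groups share libraries. Replicate 1 at 4 h was high for TOP2A (232.7 CPM, others 188.2 to 192.2) and for the sums of all members (6073 CPM, others 5134 to 5177), of the kinetochore genes (1384 CPM, others 714.8 to 741.1) and of the condensin group (1051 CPM, others 817 to 838.9). This library has the lowest total of all and is also the highest library of CENPF. Without CENPF and CKAP5 the sum of the members in it was 4779 CPM, others at 4 h 4622 to 4660. Replicate 4 at 1 h was high in the sum of all members (5697 CPM, others 4942 to 5024) and of the kinetochore genes (1396 CPM, others 693.2 to 735.6), DMSO replicate 1 in the kinetochore sum (919.2 CPM, others 695.9 to 728.1) and DMSO replicate 2 in the spindle sum (2259 CPM, others 1635 to 1707), through CENPF in the first 3 of these and CKAP5 in the last.

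The cyclin-kinase sum was high in replicate 1 at 0.5 h (475.3 CPM, others 453.7 to 457.1) and at 2 h (480.1 CPM, others 454.8 to 455.4). Low single libraries were CCNA2 in replicate 4 at 4 h (28.12 CPM, others 32.14 to 32.55), FOXM1 in replicate 3 of DMSO (28.63 CPM, others 32.03 to 32.35) and at 1 h (24.77 CPM, others 31.15 to 32.13), BUB1 and CENPE in replicate 2 at 0.5 h (47.86 CPM, others 51.85 to 52.08, and 64.46 CPM, others 73.51 to 75.16) and CENPA in replicate 4 at 2 h (68.85 CPM, others 72.27 to 72.63). TACC3 was high in replicate 2 at 4 h (120.2 CPM, others 103.8 to 104.7).

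Transcription at 24 h differed from that at 4 h in 23 members by the edgeR contrast between these times, all lower at 24 h. That contrast is the difference between the 4 h and 24 h effects, since both are taken against the same DMSO libraries.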

How the results depend on the processing

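In both 24 h comparisons the negative median log2 fold change of the members was kept in every setting tried. With DESeq2 all 59 members were below 0 in both 24 h comparisons. Over the 22 alternatives other than DESeq2 the median ran from -0.2613 to -0.2098 at 24 h against DMSO. At 24 h against 4 h it ran from -0.3072 to -0.2067, where -0.2067 came from total-count scaling. That scaling also gave the lowest median at 4 h against DMSO, 0.0176, within a range reaching 0.0668. Counts of called members moved more, and the cause was not tested. At 24 h against DMSO, 24 h against 4 h and over the time course the counts of 19, 23 and 21 became 36, 45 and 45 with the replicate block, 39, 46 and 49 with the block and without replicate 1, 1, 1 and 3 with total-count scaling, 5, 13 and 13 with no low-count filter and 24, 31 and 33 with DESeq2. Among the 24 members that overlap no annotated gene 8, 9 and 9 were called, 33.3%, 37.5% and 37.5% of that smaller set, where the shares of all 59 were 32.2%, 39.0% and 35.6%. Fitting only the groups compared gave 2 and 0 for the first pair. Leave-one-out counts ran from 0 to 15, from 0 to 22 and from 0 to 21. All 19 members called at 24 h without the block were also called with it and by DESeq2.

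Early counts of 0 became 1, 2, 1 and 1 at 0.5, 1, 2 and 4 h with the block, and 2 and 1 at 2 and 4 h with the block and without replicate 1. Leaving out replicates or libraries gave 0 to 1 calls at 1 and at 2 h. With the block the counts were 6 for other mitotic regulators, 10 for other kinetochore genes, 12 for other spindle and cytokinesis genes, 3 for DREAM and MuvB regulators and 8 for DNA replication. Their leave-one-out ranges were 0 to 1, 0 to 4, 0 to 3, 0 to 1 and 0 to 1, and the condensin II and cohesin list gave 0 to 0.

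The log2 fold change of CDCA3 turned to -0.000403 with median-of-ratios size factors, -0.00106 with only the groups compared, -0.00233 with DESeq2, -0.11 without replicate 4, -0.118 without it and with the block, -0.054 without DMSO replicate 4 and -0.044 without 24 h replicate 4, and leave-one-out values reached 0.071. That of TACC3 turned to 0.00847 with total-count scaling, 0.00694 without replicate 3, 0.000243 and 0.000307 without DMSO replicates 1 and 2, and 0.031 without 24 h replicate 3, and leave-one-out values reached -0.094. Among named genes 98 values lost and 20 gained a call, 12 reversed and 416 did neither.

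In the whole window of 300 bases the CHR stood in 72.0% of members (TTTGAA alone in 68.0%) and with a CCAAT box in 58.0%. The shares of the 15843 protein-coding promoters in that window were 13.5% (12.1%) and 5.57%.

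Depth limits low genes most: CDCA3 had 79.7 counts per library and no call in any setting. The replicate 1 library at 24 h was not analysed here, so pairs at 24 h number 3.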
